A study of Populus ussuriensis with 20 samples.

Results

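The 150 genes described here are those whose transcripts stood highest at 96 h, relative to every earlier time, in the cut stem base of wild-type Populus ussuriensis, a poplar. They were chosen from 39538 gene models by their wild-type level alone. Counts were divided by the library total to give counts per 1000000 (CPM), and 18091 gene models had a wild-type mean of at least 5 CPM at 96 h. Each of these was scored by the log2 ratio of its 96 h mean to the highest of the 4 earlier means, with 1 CPM added to both, and the 150 highest scores were taken. A positive score, meaning a wild-type maximum at 96 h, was found for 5380 of the 18091 (29.7%), so the members are the steep end of a much larger set.

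Cuttings were wild-type (WT) or carried PuHox52 under the 35S promoter of cauliflower mosaic virus, which drives a gene in most plant tissues (OE). The lowest 0.5 cm of the stem was harvested at 5 times from 6 to 96 h after cutting, the others being 12, 24 and 48 h, from in vitro material kept on half-strength Murashige and Skoog medium with sucrose under 16 h of light and 8 h of dark. Every one of the 10 groups had 2 libraries, each from 40 cuttings, so n = 2 for each mean ± SD below. How many transgenic lines were pooled is not given, and the age of the donor plants is stated both as 2 and as 4 weeks. Library totals ran from 10399262 to 27472303 counts. The harvests at 24, 48 and 96 h were whole days apart and so fell at the same hour of day, whereas those at 6 and 12 h did not. The labels describe the 2 libraries as biological replicates of pooled cuttings, and p-values measure the spread between such pools. An uncut stem was not analysed here.

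PuHox52 encodes a homeodomain-leucine zipper protein, a class of transcription factor found in plants. A stem cutting forms adventitious roots by first responding to the wound, then returning some cells near the vascular tissue to division, and finally building a root primordium that grows out through the stem. Transcripts that appear late after cutting can belong to any of the tissues in the stem base, because the whole segment was ground. In such bulk samples a change in the number of cells of a type cannot be told apart from a change in RNA per cell. The deposited tables give positions and lengths but no gene names or products, so members are described by ID, level, time course and position.

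In WT the members shared a sharp step between 48 and 96 h, but differed in what came before it. Their scores ran from 0.91 to 3.26 with a median of 1.21. Of the 150, 116 scored above 1 and 13 above 2. These are the values that chose the members and are given as a description. Just inside the limit, ranks 148 to 150 scored 0.914169, 0.914026 and 0.912179, and just outside it ranks 151 to 153 scored 0.910698, 0.907676 and 0.904912. Both 96 h libraries exceeded all 8 earlier WT libraries for 148 members.

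The highest score belonged to Potri.009G094100.v3.0 (chromosome 9, 8523935 to 8526045, gene model length 2111 bases). Its 2 WT libraries held 0.192 and 0 CPM after 6 h, then 0.252 and 0.51 CPM (12 h), 0.244 and 0.462 CPM (24 h), 0.657 and 0.75 CPM (48 h) and 16.4 and 14.4 CPM (96 h). The gene was thus close to silent in all 8 earlier libraries. Its OE libraries held 0.119 to 0.365 CPM at the 4 earlier times and 7.67 and 5.66 at 96 h, so the pattern recurred at a lower level. The second score belonged to Potri.013G011700.v3.0 (chromosome 13, 748665 to 749582), with no counts in either WT library at 6 h. It had 1 count over the WT libraries of 12 h, then 0.163 and 1.72 CPM (24 h), 2.19 and 1.67 CPM (48 h) and 15.4 and 38.5 CPM (96 h). Against the floor of 3 counts over the group, its 96 h level was at least 207-fold higher than at 6 h in WT and at least 174-fold higher in OE, where 6 h also gave no counts. Those last libraries differed by more than 2-fold, and the gene stood above the earlier ones in both.

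**Figure D1:**
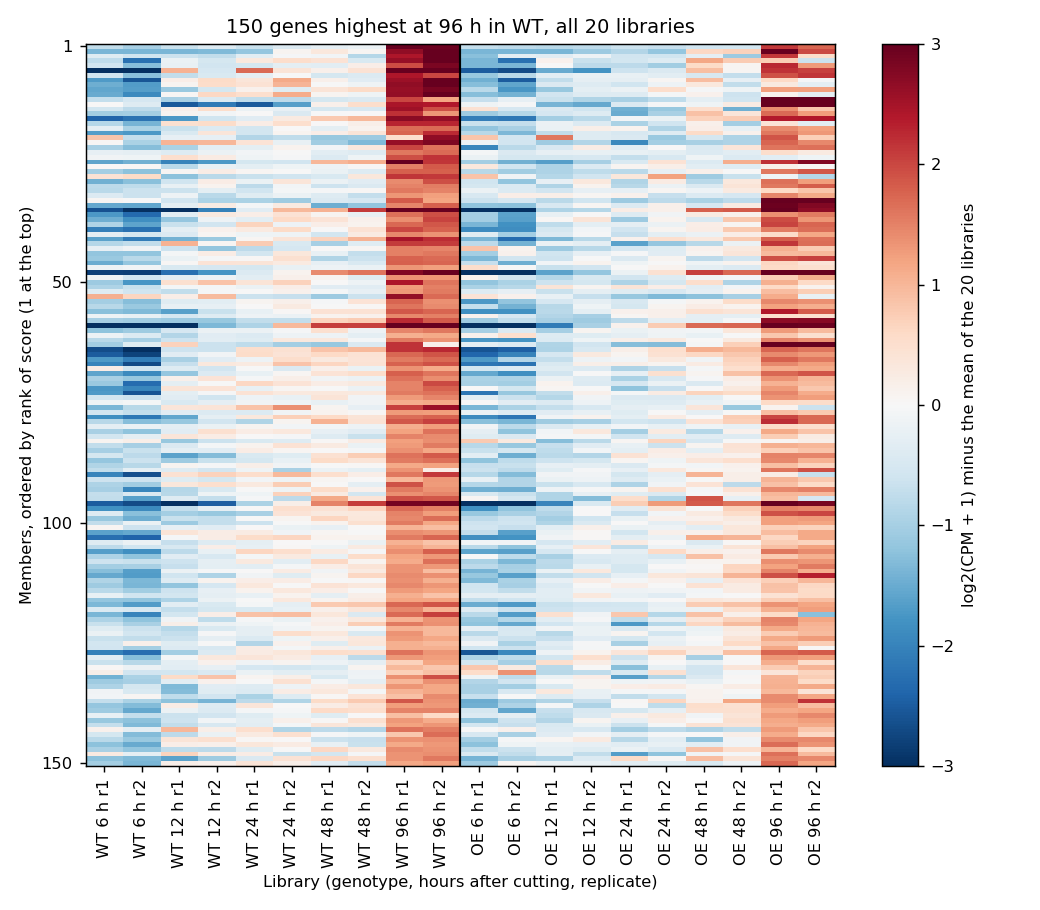
Levels of the 150 members (lines, ordered by score) in the 20 libraries (columns), as log2(CPM + 1) minus the member's mean over all libraries. Both WT libraries at 96 h are high for nearly all members because the rule chose them so; both OE libraries at 96 h, which the rule did not use, are also high for most.

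Several distinct courses led to the same late maximum. The next highest WT mean was that of 48 h for 75 members, 24 h for 48, 12 h for 18 and 6 h for 9. In 46 members the WT mean rose at every step from 6 to 96 h, and in OE this was so for 58, with 31 doing so in both. By 48 h the WT mean (with 1 CPM added) had already reached at least 2-fold the 6 h mean in 73 members, while 75 stayed within 2-fold of it and 2 had fallen at least 2-fold. These counts compare the end points alone, and some of the 75 moved by more than 2-fold in between.

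Levels spanned more than 4 orders of magnitude. At 96 h in WT, the authors' deposited FPKM (fragments per kilobase of gene model, scaled to library depth, which allows comparison between genes) averaged from 1.62 to 21986 per member over 2 libraries, with a median of 23.2. Of the 150 members, 28 were under 10 CPM and 8 over 1000 CPM. Highest was Potri.013G101000.v3.0 (chromosome 13, 11347121 to 11349338), which rose from 867 and 695 CPM at 6 h to 24692 and 26256 at 96 h in WT. In OE it went from 920 and 1012 CPM to 18327 and 16705. Both genotypes thus rose from a few percent of the final level, and the WT libraries ended the higher. A neighbour on the other strand, Potri.013G100700.v3.0 (11267694 to 11296946), had WT libraries far apart at 12 h (1673 and 567 CPM) and 24 h (2605 and 1058 CPM). At 48 h they held 904 and 1085 CPM and at 96 h 11806 and 8790. Its OE libraries held 1499 and 844 CPM at 48 h and 3638 and 3357 at 96 h, below both WT libraries.

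The members' summed share of all counts gives the size of the late step in a single figure per library. In the WT libraries it was 0.62 and 0.547% (6 h), 1.31 and 1.34% (12 h), 2.11 and 2.08% (24 h), 2.35 and 2.62% (48 h) and 7.38 and 7.02% (96 h). In the OE libraries it was 0.633 and 0.687%, 1.06 and 1.3%, 1.53 and 1.88%, 2.57 and 2.69%, and 5.48 and 5.15% in the same order. The ranges of the genotypes overlapped at 48 h alone. At 12 h they nearly touched, and at 6 h the nearest libraries were close (0.62% in WT and 0.633% in OE). With 2 libraries a group and WT values used by the rule, no difference in share was tested. The 5 most abundant members took 5.8 and 5.35% of the counts at 96 h in WT and 3.97 and 3.77% in OE. Without them, the other 145 members held 1.58 and 1.67% in WT and 1.5 and 1.37% in OE, so most of that gap between genotypes lay in the 5. The 5 were picked by their WT level at 96 h, which favours WT. They also held most of the members' counts in both genotypes, so a large part of any gap would fall to them.

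**Figure D2:**
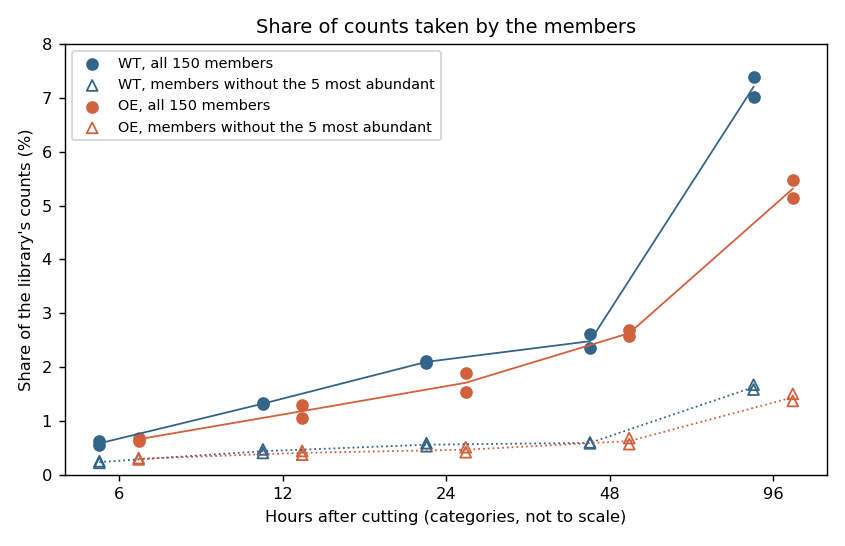
Share of each library's counts taken by the members, in percent, against hours after cutting; points are libraries, lines join the means of 2, and triangles leave out the 5 most abundant members. At 96 h WT stands at 7.38 and 7.02% and OE at 5.48 and 5.15%.

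Whether the late rise recurred in libraries the rule had not seen was asked in OE, where each of the 4 earlier times was compared with 96 h. The test was edgeR's quasi-likelihood test over 26391 genes with Benjamini-Hochberg adjustment, a gene being called at an adjusted p under 0.05, and all 150 members entered it. Of the members, 90 (60%) were called higher at 96 h than at each of the 4 other OE times, against 2.38% of all genes tested and 2.31% of the 18091 gene models at or above the 5 CPM limit. The next 150 genes by score (ranks 151 to 300) included 49 such genes. The members' own count of 90 fell to 29 when replicate 1 of OE at 48 h was left out, and to 42 or 57 when replicate 1 or 2 of OE at 96 h was.

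Time by time, 96 members were called higher at 96 h than at 48 h in OE (64%, against 3.64% of all genes), 132 than at 24 h (12.7%), 132 than at 12 h (18.3%) and 134 than at 6 h (31.1%). The median log2 fold change of the members was 1.05, 1.58, 1.73 and 2.18, and that of all genes 0.0023, 0.019, 0.028 and 0.052. In WT, where the rule fixed the direction, the median change from 48 to 96 h was 1.58. Leaving out the same 3 libraries took the 96 to 30, 48 and 63. By edgeR, 0 members were called lower than at 48 h (3.54% of all genes) and 0 lower than at 12 h (18.8%), as with DESeq2. Without adjustment, 1 and 0 members passed 0.05 in that direction. Potri.006G188400.v3.0 came nearest to a lower call at 48 h (log2 fold change -0.89, SE 0.311, edgeR adjusted p 0.0987). In 3 of the alternative runs it was called lower, so the absence of such calls depends on the processing. Only 1 member was called lower than at 24 h (13.8%) and 2 lower than at 6 h (28.9%). Of the 37 members called against 3 of the 4 times, 31 missed the call at 48 h. The OE mean was highest at 96 h for 139 members, against 31% of the gene models at or above the limit, at 48 h for 7, at 24 h for 2 and at 6 h for 2.

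**Figure D3:**
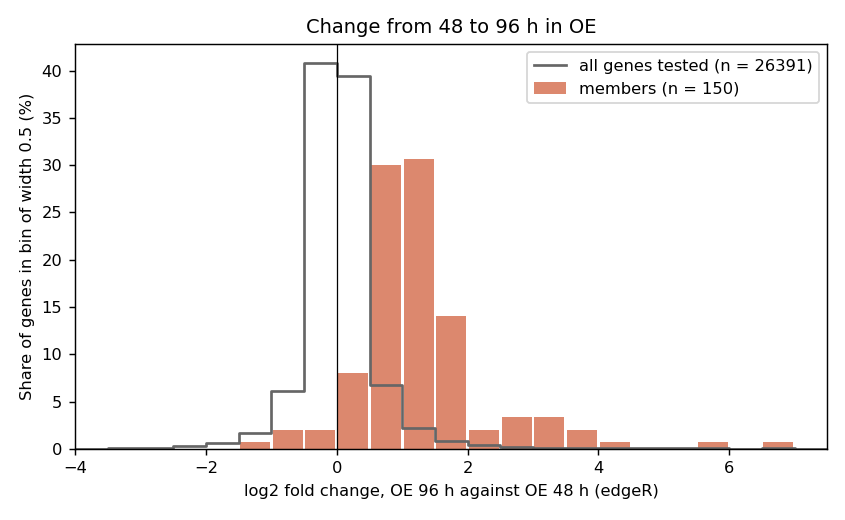
Distribution of the log2 fold change from 48 to 96 h in OE for the 150 members (bars) and all 26391 genes tested (line), as the percentage of genes in bins 0.5 wide. The members centre on 1.05 and all genes on 0.0023; 143 members lie above 0. A few of all genes tested lie beyond the axis.

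The strongest late rise in OE was that of Potri.009G145700.v3.0 (chromosome 9, 11529356 to 11531184). Its OE libraries held 0.0564 to 0.569 CPM at the 4 earlier times and 28.8 and 29.8 at 96 h, a 124-fold rise over 48 h (log2 fold change 6.95, SE 0.415, edgeR adjusted p 2.54e-07). In WT it reached only 7.05 and 4.11 CPM, so OE stood well above both WT libraries. Potri.003G077800.v3.0 (chromosome 3, 10639545 to 10641602) came next, with 0.587 and 0.304 CPM at 48 h and 18.9 and 24.2 at 96 h in OE (log2 fold change 5.54, SE 0.584, edgeR adjusted p 6.86e-05). Its WT libraries held 6.89 and 3.42 CPM at 96 h. Both genes had been nearly silent in each genotype at 48 h. Every alternative run for these genes kept the call.

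For the 2 genes with the highest WT scores, OE gave log2 fold changes from 48 to 96 h of 4.25 (SE 0.382, edgeR adjusted p 1.84e-05) for Potri.009G094100.v3.0 and 2.56 (SE 0.597, adjusted p 0.0193) for Potri.013G011700.v3.0. The latter had 27.4 and 9.2 CPM at 96 h in OE, another pair differing by more than 2-fold. Its call was lost with DESeq2 (adjusted p 0.205), on leaving out either OE library at 48 h (0.174 and 0.0803) and on leaving out replicate 1 of OE at 96 h (0.214). The abundant chromosome 13 neighbours rose by 0.63 (Potri.013G101000.v3.0, SE 0.149, adjusted p 0.0184) and 1.56 (Potri.013G100700.v3.0, SE 0.423, adjusted p 0.0341) on the log2 scale. Leaving out either library at 48 or 96 h in OE ended both calls, with edgeR adjusted p of 0.0678 to 0.149 and 0.0788 to 0.187, and the first was also lost with the OE libraries alone (0.0989).

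A minority of members did not follow the WT course in OE, and 6 were called higher against none of the 4 earlier times. Those 6 were all among 24 members whose OE mean at 96 h (with 1 CPM added) lay at least 2-fold below WT. Both the calls and this split use the OE libraries at 96 h, so the overlap was partly set in advance. Only 5 members lay at least 2-fold above WT. The WT libraries at 96 h chose the members, which favours OE values below WT, so these differences are given without a test. Among all 18091 gene models at or above the limit, 0.321% lay at least 2-fold below and 0.448% at least 2-fold above. Over the 150, the median log2 ratio of OE to WT at 96 h was -0.32 (quartiles -0.58 and -0.036), with a range of -3.09 to 2.20, and over the 18091 it was 0.038. In 83 members both OE libraries lay below both WT libraries (17.3% of the 18091), and in 15 both lay above (32.2%).

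**Figure D4:**
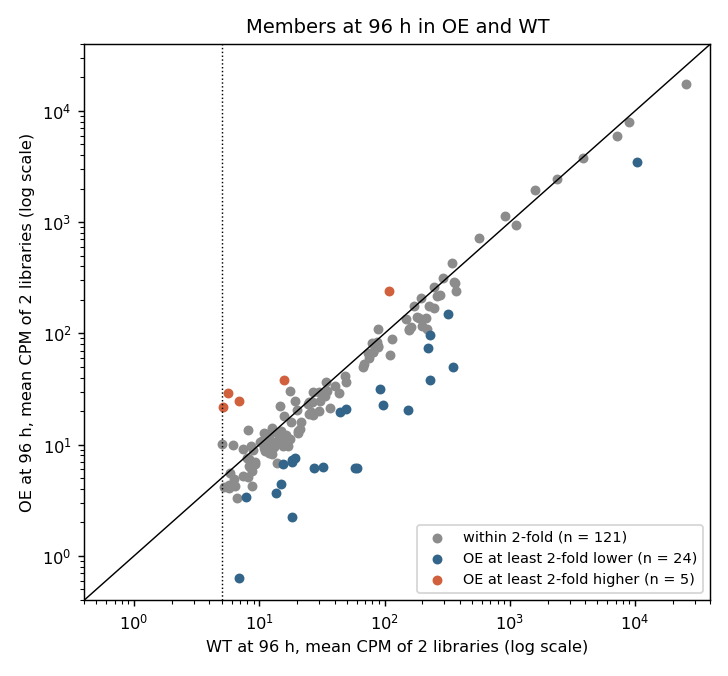
Mean CPM of each member at 96 h in OE (vertical, log scale) against WT (horizontal, log scale); the line marks equal levels and the dotted line the limit of 5 CPM in WT. Of the 150, 24 lie at least 2-fold below WT, 5 at least 2-fold above and 121 between.

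The lowest ratios were those of Potri.019G006900.v3.0 and Potri.019G011000.v3.0 on chromosome 19. Their counts were similar throughout (820 and 1168 against 779 and 1140 in WT at 96 h), as were their lengths (789 and 792 bases), so shared reads are possible and they are best read as 1 signal of uncertain origin. Potri.019G006900.v3.0 held 45.5 and 73.9 CPM in WT at 96 h and 7.1 and 5.16 in OE. At 48 h it stood at 6.94 and 5.83 CPM in WT and 7.15 and 3.83 in OE, so the genotypes overlapped there. The OE change from 48 to 96 h was 0.12 on the log2 scale (SE 0.33, edgeR adjusted p 0.872). From 6 to 96 h it was 1.55 (SE 0.39, edgeR adjusted p 0.00278) and was called. The changes from 12 and 24 h to 96 h were not (edgeR adjusted p 0.321 and 0.796), and steps between the earlier times were not tested.

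Potri.008G149200.v3.0 (chromosome 8, 10053943 to 10060443) ran from 24.2 and 12.5 CPM at 48 h to 112 and 194 at 96 h in WT. In OE it ran from 40.5 and 30.3 CPM to 29.9 and 10.8. OE was above WT at 48 h and below it at 96 h, without overlap at either time. Potri.004G000400.v3.0 (chromosome 4, 75005 to 75868) ran from 43.8 and 30.9 CPM to 238 and 467 in WT, and from 75.9 and 32.8 to 60.3 and 38.5 in OE. The OE values of 48 and 96 h overlapped each other, and both OE libraries lay far below WT at 96 h. OE log2 changes from 48 to 96 h were -0.82 (SE 0.464, edgeR adjusted p 0.319) and -0.16 (SE 0.419, adjusted p 0.87). From 6 to 96 h both genes were called higher in OE, by 2.01 (SE 0.556, edgeR adjusted p 0.00545) and 2.19 (SE 0.472, adjusted p 0.000845). The lowest OE change of any member was -1.0 (SE 0.691, edgeR adjusted p 0.43), in Potri.004G046000.v3.0, where OE held 14.6 and 2.61 CPM at 48 h.

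**Figure D5:**
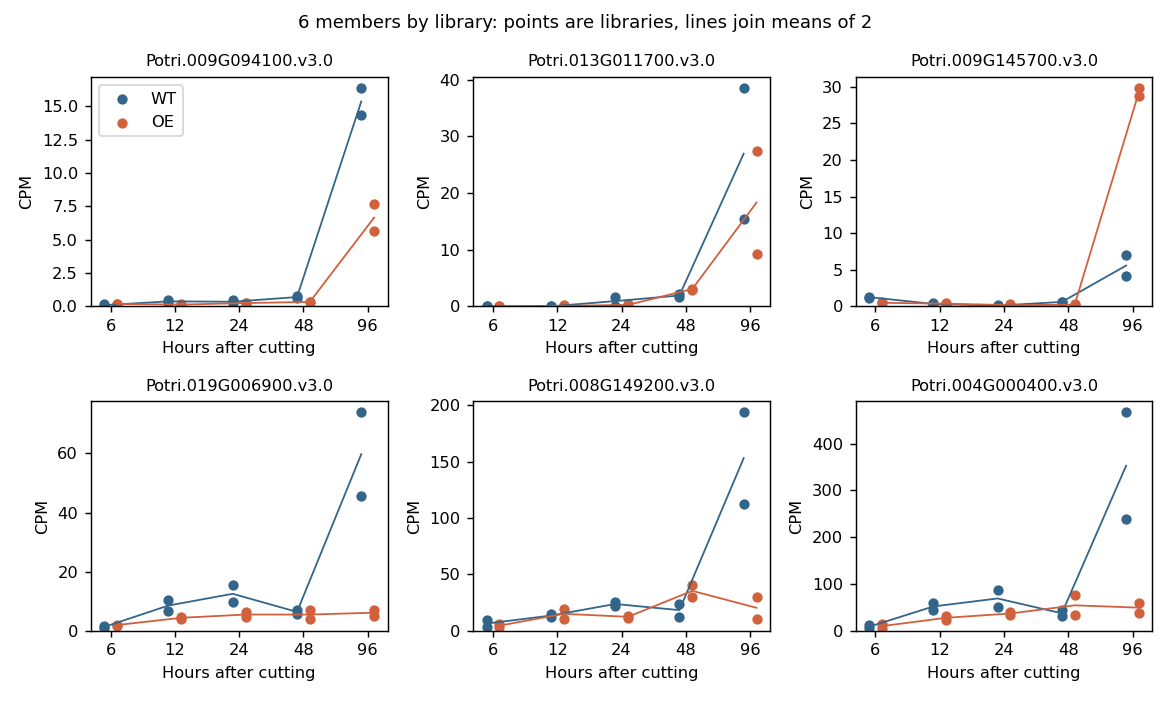
CPM of 6 members against hours after cutting; points are the libraries of WT and OE and lines join the means of 2. The upper 3 genes rise at 96 h in both genotypes, with OE reaching 28.8 and 29.8 CPM in Potri.009G145700.v3.0. From 48 to 96 h the lower 3 rise in WT alone, to 45.5 and 73.9 CPM in Potri.019G006900.v3.0. Their OE libraries at 96 h stay near those at 48 h or below, though above the OE level at 6 h.

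The earlier course of the 24 lower members is given beside that of the 121 members within 2-fold of WT. From the first time to the last, their median level was 4.51, 8.18, 11.4, 6.43 and 46.7 CPM in WT, and 4.56, 5.08, 6.2, 8.05 and 7.44 CPM in OE. In WT the median was lower at 48 h than at 24 h. By library, the OE medians were 4.93 and 5.79 CPM at 24 h and 12.5 and 4.01 CPM at 48 h, so OE replicate 2 at 48 h lay below both 24 h libraries and replicate 1 above both. OE was below WT in 8 of the 24 at 6 h, then in 17 (12 h), 18 (24 h) and 13 (48 h), and among the 121 in 42, 52, 89 and 37. The shares were thus close at 6 and 24 h, and no difference between these sets was tested. For 12 of the 24 the next highest WT time was 24 h, and for 4 it was 48 h. At 96 h, OE replicate 2 exceeded replicate 1 in 3 of the 24 (median ratio of replicate 2 to 1 of 0.648). Among the 121, replicate 2 was the higher in 43 (median ratio 0.926), so it was the higher in a minority of both sets. What part this spread between OE replicates had in the low OE values was not tested.

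The remaining 121 members, within 2-fold of WT at 96 h, had medians of 24.8 CPM in WT and 22.1 in OE at that time. Of these, 79 were called against all 4 times in OE, as were all 5 members that were higher in OE and 6 of the 24 lower ones. The sets and the calls both rest on the OE level at 96 h, so this order was partly fixed by the split. Members whose next highest WT time was 48 h were called against all 4 times in 49 of 75 cases, those with 24 h in 26 of 48, those with 12 h in 13 of 18 and those with 6 h in 2 of 9.

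Only 2 members were called lower at 96 h than at any earlier OE time. Potri.002G240700.v3.0 (chromosome 2, 23324276 to 23327639) held 18.3 and 18.1 CPM in WT at 96 h, whereas its OE libraries held 7.01 and 3.09 CPM (6 h), 4.57 and 9.24 CPM (24 h) and 3.03 and 1.42 CPM (96 h). Its OE log2 fold changes at 96 h were -1.66 against 24 h (SE 0.439, edgeR adjusted p 0.0115) and -1.33 against 6 h (SE 0.444, adjusted p 0.0171). Both calls ended when replicate 2 of OE at 96 h was left out (edgeR adjusted p 0.12 and 0.175), the first also without replicate 2 at 24 h (0.106) and the second without replicate 1 at 6 h (0.381). Potri.006G279000.v3.0 fell by 0.54 on the log2 scale against 6 h (SE 0.217, edgeR adjusted p 0.0426), from 33.7 and 23.8 to 20.2 and 21.8 CPM. That call ended with the OE libraries alone (0.0652), without OE 6 h replicate 1 (0.409), either OE library at 96 h (0.133 and 0.0904) or WT 24 h replicate 1 (0.0501). In WT this gene went from 20.3 and 21.8 CPM at 6 h to 46.3 and 51.7 at 96 h.

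Before 96 h, the genotypes were set side by side without a test, because the rule favoured low WT means at those times. OE was below WT in 51 of the 150 members at 6 h, then in 72 (12 h), 110 (24 h) and 52 (48 h). The corresponding shares were 34, 48, 73.3 and 34.7%, beside 43.1, 45.1, 40.3 and 51.3% of the 18091 gene models at or above the limit. At 24 h OE was thus below WT in most members, and how far the rule shaped the ratios at that time was not tested. The median log2 ratio of OE to WT there was -0.23 for the members and 0.039 for the 18091. At 24 h 18 members differed at least 2-fold, compared with 3, 8 and 2 at 6, 12 and 48 h. The matching shares of the 18091 were not computed, so these counts cannot be read as particular to the members.

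Replicates of a group differed more often in the members than in the 18091 gene models, and no difference was tested. The rule favoured low WT means at the earlier times, and levels were not matched between the members and the gene models. At 96 h, pairs more than 2-fold apart numbered 6 in WT and 10 in OE, or 4 and 6.67% of members beside 0.475 and 0.271% of the gene models. At the earlier times the members' share ran from 4.67 to 19.3% and that of the gene models from 0.315 to 1.87%. Within WT, replicate 2 was the higher in 38 members (6 h), 106 (12 h), 101 (24 h), 74 (48 h) and 77 (96 h). Shares of the members were 25.3, 70.7, 67.3, 49.3 and 51.3%, beside 44.8, 53.5, 49.6, 51.8 and 50.6% of the gene models. Within OE the counts were 59, 117, 112, 98 and 50, or 39.3, 78, 74.7, 65.3 and 33.3%, beside 52, 57.5, 53.6, 53.6 and 54.6%. The side on which the members leaned thus changed from group to group.

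Applying the same rule to the OE libraries, which held 18569 eligible gene models, gave another list of 150, and 70 genes (46.7%) were on both. Of the WT members, 109 stood among the first 500 in OE and 121 among the first 1000.

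In properties the rule did not use, members tended to be short. Their median gene model length was 1468.5 bases (360 to 4129), against 2004 for the 18091. In 25 members (16.7%) the length equalled the genomic span, as for a model without introns, against 6.49%. Chromosome 2 held 16 members, chromosome 1 held 15, chromosome 9 held 13, and chromosomes 17 and 4 held 12 each. In the same order that is 10.7, 10, 8.67, 8 and 8% of members, beside 7.38, 11.6, 4.79, 3.1 and 5.47% of the 18091, so chromosome 1 held fewer than its share. None of these shares was tested. No member was among the models named newGene, and 3 lay on scaffolds.

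Some members were neighbours. Within 250 kb of each other, 48 members fell into 20 groups, 6 of them with 3 or more, while among the next 150 genes by score 49 did so, with 3 groups of that size. The largest groups held 4 members each, on chromosome 10 (1551686 to 1912875) and on chromosome 17 (3127341 to 3428890), and 3 and 1 of these were called against all 4 OE times. The chromosome 10 group includes Potri.010G012100.v3.0, whose stated span of 1614683 to 1912875 far exceeds its length of 734 bases and covers 2 other members on the opposite strand. It went from 226 CPM at 6 h to 7149 at 96 h in WT and from 261 to 5909 in OE. On chromosome 1, Potri.001G400100.v3.0 and Potri.001G400200.v3.0 overlap on opposite strands. They moved in step, at 1579 and 919 CPM in WT at 96 h and 1938 and 1126 in OE. Because the strand setting of the counting is not given, reads from any bases that such models share may not be told apart. Overlap here is of genomic spans, so it need not involve shared bases of the gene models. In all, 18 members (12%) overlapped another gene model, against 13.7% of the 18091.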

How the data were processed

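RNA sequencing tables of 20 libraries were used, 2 for each of 10 groups. Per the file headers, each deposited table lists 39538 gene models, with columns for the count, FPKM and a normalized signal. The submitters' processing notes name TopHat2 2.1.1 and HTSeq 0.6.0 without their roles; which build, annotation and strand setting were used is not given, and coordinates are as deposited. The deposited counts are whole numbers and may have been rounded up by the authors. FPKM served only for levels between genes and as an alternative in the rule; the authors' signal was not used.

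CPM is the count per 1000000 counts of the library. Tests used R 4.3.3 and edgeR 4.0.16: filterByExpr defaults (26391 genes), TMM scaling, 1 group-means model over 20 libraries (10 residual degrees of freedom), glmQLFTest and Benjamini-Hochberg adjustment over all genes. SE is the log2 fold change divided by the square root of F. The procedure was tested on simulated counts. DESeq2 1.42.0 was an alternative. Replicate numbers follow accession order and pair nothing. The labels call the libraries biological replicates.

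The members, lists and tests were chosen with earlier results of these data known. The rule for named genes took the highest scores, highest levels, largest and smallest OE changes and ratios, and members called lower. A wider version was planned; because no file used here pairs IDs with products, only a few extremes per comparison are named, and product-based gene lists, cell type markers and promoter or protein sequences were not analysed here. Overlapping models were singled out after their values were seen. PuHox52 itself was not analysed here, so the genotype labels were not checked by it. Floors of 3 counts cover counting error only. Alternatives were other scaling, no filter, DESeq2, OE alone, other limits in the rule and leaving out each library. Totals of 10399262 to 27472303 counts gave 1 CPM at least 10 counts; with 2 libraries a group, precision rests on the spread shared across genes.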

Additional observations from a re-analysis of the deposited data

Results flagged for a closer look

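One member moved in opposite directions in the genotypes between 48 and 96 h in every library. Potri.008G149200.v3.0 rose in both WT libraries (24.2 and 12.5 to 112 and 194 CPM, log2 fold change 3.13) and was lower in both OE libraries at 96 h than in either at 48 h (40.5 and 30.3 to 29.9 and 10.8 CPM, log2 fold change -0.82). The OE fall was not called (SE 0.464, edgeR adjusted p 0.319), and the nearest OE libraries of 48 and 96 h, at 30.3 and 29.9 CPM, were almost equal. The difference between the genotypes was not tested, because the rule that chose the members used the WT rise.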

How the results depend on the processing

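The 90 members called against all 4 OE times numbered 86 with median-of-ratios size factors, 88 with DESeq2, 99 without filtering low counts and 74 with the OE libraries alone. Leaving out 1 of the 20 libraries gave 29 to 93. The 96 members called higher at 96 h than at 48 h numbered 92, 94, 107 and 80, and 30 to 100. A group left with 1 library was assumed to vary like the others. Of the 150 members, the rule found 107 again with a 1 CPM limit, 122 with 10 CPM, 145 and 118 with 0.5 and 5 CPM added, 144 after TMM scaling, 124 with FPKM, and 116 to 149 without 1 WT library.

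Among named genes, direction turned only in differences near 0 or between unlike replicates when a library was left out, and the cause was not tested. The OE log2 change from 48 to 96 h then ran from -2.17 to 0.74 for Potri.004G046000.v3.0 and from -0.67 to 0.58 for Potri.004G000400.v3.0 (also above 0, at 0.12, without OE 96 h replicate 2). It ran from -0.28 to 0.66 for Potri.019G006900.v3.0 and from -0.39 to 0.91 for Potri.019G011000.v3.0, with values of -0.15 and -0.28 without OE 96 h replicate 1. For Potri.002G240700.v3.0 it ran from -0.046 to 1.07. The difference of OE from WT at 96 h in Potri.013G011700.v3.0 ran from -1.645 to 0.18, the latter without WT 96 h replicate 2.

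No paired analysis was possible because the labels carry no replicate numbers. The planned lists by product were not formed, so their alternatives were not run. Counts near 0 limit early levels of the quietest members.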
